A study of Arabidopsis thaliana with 28 samples.

Results

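Class III peroxidases are secreted haem enzymes that land plants use to build and remodel their cell walls. With hydrogen peroxide as oxidant they couple phenolic units into lignin and cross-link wall proteins such as extensins, which stiffens the wall, and in another reaction cycle they can form oxygen radicals that loosen it. In roots different members of this large family act in growing root hairs, in the Casparian strip of the endodermis and in the lignifying vessels of the xylem. The members described here are the single-gene probe sets of 60 listed class III peroxidase loci of Arabidopsis thaliana. The array annotation paired 42 of the 60 with a probe set of their own, among 13513 such probe sets for 13355 genes in the whole series. Another 7 loci (AT2G18140, AT2G18150, AT2G38380, AT2G38390, AT3G17070, AT4G37520 and AT4G37530) lay on 4 probe sets that the annotation gives to several genes and were not used. The remaining 11 were not paired with a probe set and are not analysed here. They include RCI3 and PER64, which belong to the endodermis, the root hair genes RHS18 and RHS19, and the defence peroxidases PRXCA and PRXCB. The other 5 are AT1G05240, AT1G05250, PER4, AT3G32980 and PA2.

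The signals come from whole roots of seedlings labelled ecotype col2, with no other genotype given, hybridized to 28 Affymetrix arrays. The labels place the start of the treatment 10 days after germination, while the sample description calls the seedlings 2 weeks old. Plants stood on vertical agar plates with 1% sucrose and were moved from a light and dark cycle into continuous darkness under a stream of mixed gas with 1%, 4%, 8% or 21% oxygen. Roots were harvested after 0.5, 2 or 48 h. The groups at 1% and 4% oxygen held 2 arrays at each duration, as did those at 8% at 0.5 and 2 h, and 8% at 48 h and each group at 21% (normal air) held 3. Every group was in the dark, so no group serves as a light reference, and time in darkness, age and time of day cannot be told apart. The labels do not say what the replicate letters A to G stand for or whether arrays came from separate plantings, so p values measure the spread between these arrays, which may be technical. Signals are MAS5 intensities that were scaled to a common mean on each array, and only values of the same probe set are compared. Fold changes are differences of log2(signal + 6), which understates the change of dim probe sets.

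Some arrays stand apart in ways that touch the results. At 48 h the array of letter F at 1% oxygen had weak signals of the low-oxygen genes used as a check. The summed signal of those 4 genes was 221 in array F and 2607 in array A at 1%, against 39.7 to 53.8 in air at 48 h, while at 2 h it was 4877 to 5133 at 1% and 44.6 to 56.9 in air. One of the 4, AT3G10040, had signals of 362 in array A and 18.3 in array F, against 36.0, 13.8 and 21.2 in air, so array F lay inside the range of air for that gene. Results at 1% for 48 h are therefore also given without array F. The 3 arrays of letter B, all at 48 h and none at 1% oxygen, had a lower quartile of 14.7 to 15.7 (6.25 to 10.2 in the other 25) and a highest signal of 11589 to 16530 (3774 to 6389 in the other 25). The title and oxygen level of 1 of them give 8%, but its treatment text also says control. Among markers of root tissue, 3 of 8 were measured and none was at 0, with summed signals of 3309 to 4350 at 1% for 48 h and 3514 to 7910 in air. Of 10 leaf genes only RCA, the activase of Rubisco, was measured. Its signal was 29.8 to 168 at 1% for 48 h and 28.3 to 107 in air.

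The probe sets of the 42 peroxidases covered a wide range of signals, which depend on the probes and do not rank the genes. That of PRXR1 had signals of 2177 to 6219 over the 28 arrays and a median of 3036. The probe set of AT2G37130 had a mean of 1592, that of AT5G64100 1530, that of AT3G01190 1295 and that of AT4G30170 1263. Another 6 members had mean signals under 10: AT5G19880, AT2G24800, AT4G17690, AT1G24110, AT4G25980 and PER36 (AT3G50990), a gene of seed coat mucilage release. Changes of these 6 are small differences between values near the floor. In a limma F test over the 12 groups, 4 of the 42 members differed between groups after Benjamini-Hochberg adjustment, against 6.28% of all probe sets tested. They were AT3G28200 (adjusted p = 0.00533), AT4G26010 (0.00626), AT5G51890 (0.0117) and AT2G39040 (0.0208).

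**Figure D1:**
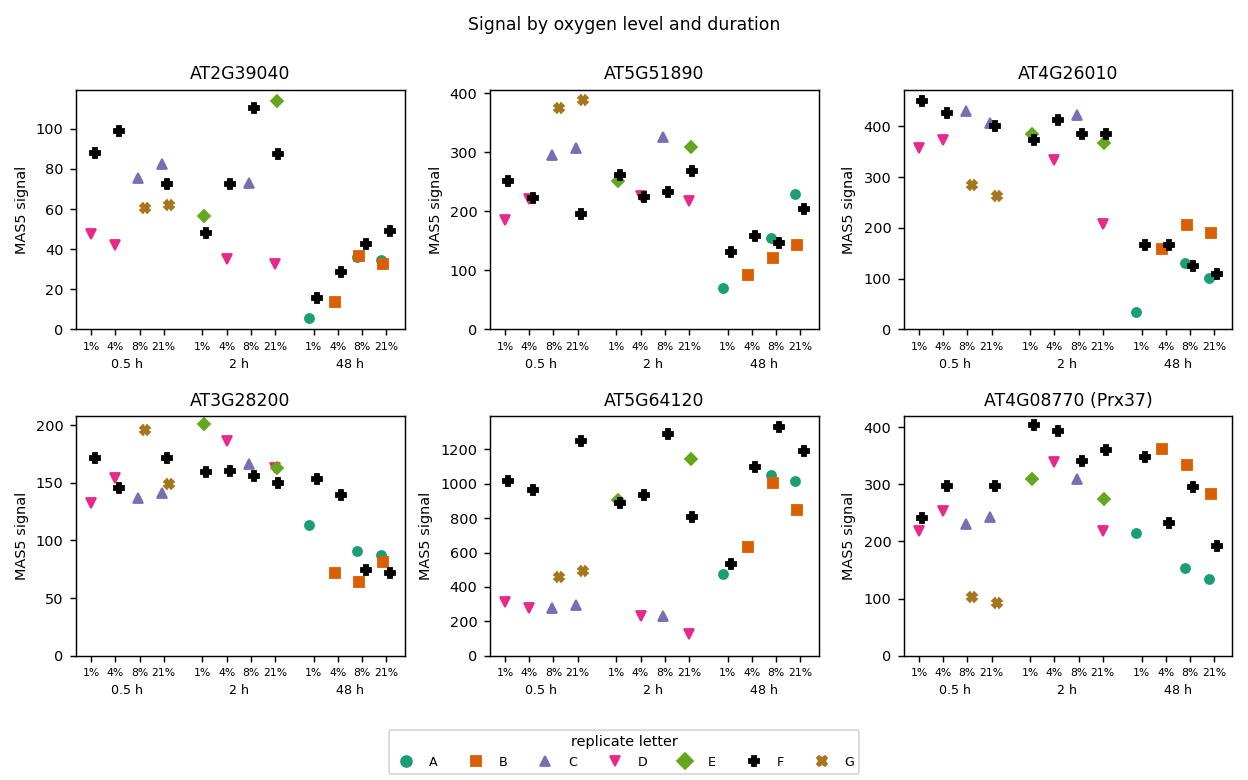
MAS5 signal (linear axis from 0) of 6 class III peroxidases on all 28 arrays, by oxygen level (1, 4, 8 and 21%, low to high) within each duration in darkness. Each point is 1 array, with shape and colour giving the replicate letter. AT2G39040 and AT5G51890 had their lowest signals, 5.66 and 69.4, in array A at 1% for 48 h, and AT4G26010 was lower in every array at 48 h than in any array at 0.5 or 2 h.

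At 1% oxygen for 48 h against air of the same duration, the members leaned to lower signals without any of them passing the test across all genes. The log2 difference was below 0 for 34 of 42 members (66% of all probe sets) and the median was -0.37, beside -0.11 over all probe sets. With limma and 2 arrays against 3, 0 members passed an adjusted p of 0.05 (0.0962% of all probe sets did), and 6 had an unadjusted p under 0.05 (5.21% of all). Both 1% arrays lay below all 3 air arrays for 11 members (9.28% of all probe sets) and above them for 1 (3.38%). The median of the members lay below that of all probe sets under each of 3 scalings of the arrays, while both moved with the scaling. After quantile normalization the medians were -0.22 for the members and -0.0033 for all probe sets, with 30 members below 0. After centring each array on its median, which shifts all its probe sets alike, they were -0.17 and 0.09, with 28 members below 0. Leaving out 1 array moved the median of the members to -0.74 without array F at 1% and to -0.10 without array A at 1%. Without array F at 1%, 1 member passed, AT4G26010 (0.422% of all probe sets).

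Arrays with the same letter deviated together at 48 h, so the comparison was also made with the letter as a block in the fit over all 28 arrays. At 48 h letters A and F hold an array at both 1% and 21%, while letter B has none at 1%. In that limma fit 7 members passed (2.27% of all probe sets). Lower were 6 (1.47% of all): AT2G39040, AT5G51890, AT5G64120, AT5G15180, AT3G21770 and AT2G22420. Higher was 1 (0.807% of all), Prx37. The count was 12 without array F at 1% (5.99% of all probe sets) and 3 without array A at 1% (2.23%), without array A in air (0.755%) and without array F in air (1.06%).

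**Figure D2:**
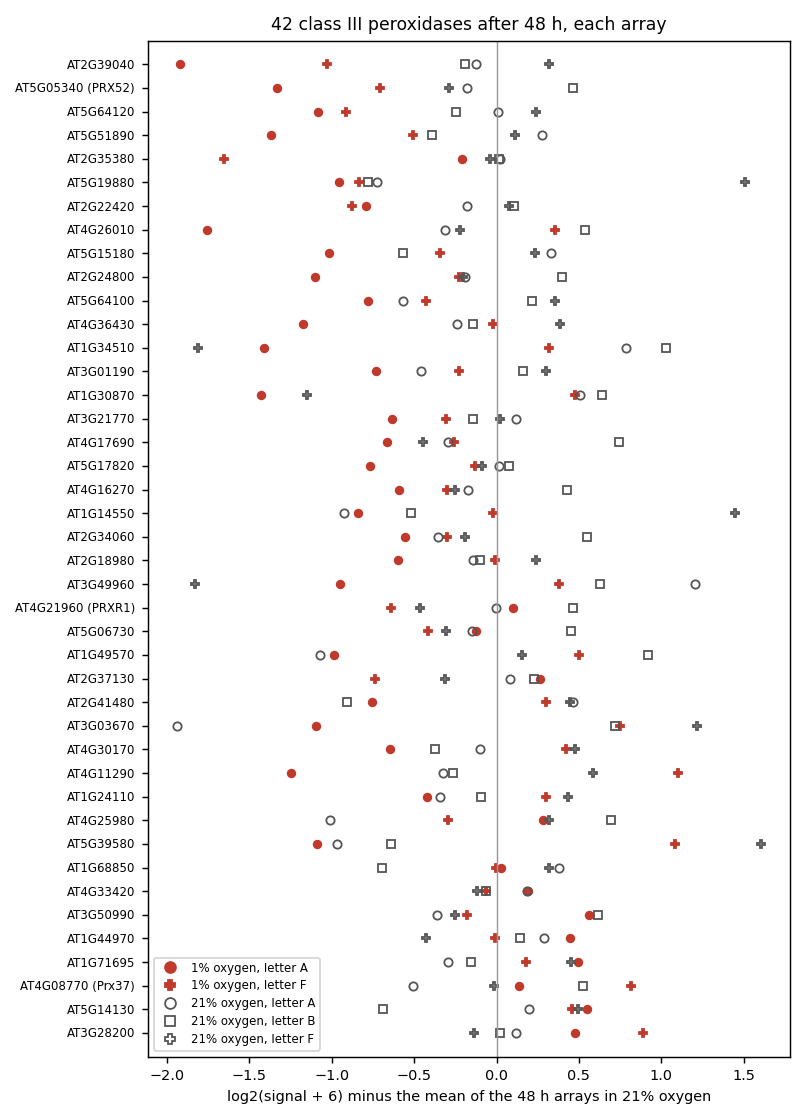
log2(signal + 6) of each 48 h array minus the mean of the 3 arrays in 21% oxygen, for the 42 members (rows), ordered by their mean difference at 1% with the lowest at the top. Red filled symbols are the 2 arrays at 1% oxygen and grey symbols the 3 in 21% oxygen, with the shape giving the letter. For AT2G39040, AT5G64120, AT5G51890 and AT2G22420 both red symbols lie left of all grey ones, while for AT4G26010, AT1G30870, AT1G34510 and AT3G49960 the red symbols fall on opposite sides of 0.

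AT2G39040, a peroxidase for which no role is given here, had the largest fall of the members that passed with the block. Its signals were 5.66 (A) and 15.7 (F) at 1%, against 34.6 (A), 32.7 (B) and 49.0 (F) in air at 48 h, so the groups did not overlap. The signal of array A at 1% lay under the added 6, near the floor. The fold change was 2.78-fold lower (log2 -1.48 ± 0.44 SE) with an adjusted p of 0.529 in limma without a block. Over 17 alternatives the log2 change lay between -1.92 and -0.86. With the letter as a block it was log2 -1.57 ± 0.19 with an adjusted p of 0.00151 (limma). It was the only member that passed under all 11 alternatives of the block fit, with adjusted p values of 0.00062 to 0.0121.

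All 8 members listed for lignifying vascular tissue were measured. At 1% for 48 h, 7 of the 8 had a log2 difference below 0 (66% of all probe sets). The median of the 8 was -0.55, beside -0.11 over all probe sets. With the letter as a block 3 of the 8 passed, all lower (1.47% of all probe sets passed as lower). AT5G51890, which is expressed in differentiating vessels, had signals of 69.4 (A) and 131 (F) at 1%, against 230 (A), 142 (B) and 204 (F) in air. Both 1% arrays were below every air array, and with the block the log2 change was -1.10 ± 0.19 (SE, limma adjusted p = 0.00806). AT5G64120 (PRX71), which strengthens walls and limits cell expansion, had 473 (A) and 534 (F) at 1%, against 1018 (A), 850.2 (B) and 1192 (F) in air. It fell 2.19-fold with the block (log2 -1.13 ± 0.20, limma adjusted p = 0.00979), and the fall was nearly the same within letter A (log2 -1.09) and within letter F (-1.15). AT2G22420, a peroxidase of lignified tissue, had 25.8 (A) and 23.96 (F) at 1%, against 42.5 (A), 53.2 (B) and 52.1 (F) in air. Its log2 change with the block was -0.77 ± 0.18 (limma adjusted p = 0.0370), but it passed in only 2 of 11 alternatives of that fit.

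The other 5 of this group did not pass in either fit. PRX52, an enzyme of stem lignin, had dim signals of 3.22 (A) and 8.20 (F) at 1%, against 14.5 (A), 26.1 (B) and 13.1 (F) in air (log2 -1.02 ± 0.56). The groups did not overlap, and the adjusted p was 0.328 with the block in limma. PRX25 (AT2G41480), likewise of stem lignin, had 83.1 (A) and 179 (F) at 1%, against 201 (A), 74.3 (B) and 199 (F) in air, with full overlap. AT2G37130 had 1512 (A) and 750.4 (F) at 1%, against 1331, 1471 and 1011 in air (A, B and F). PRXR1 had 4260 (A) and 2549 (F) at 1%, against 3972 (A), 5487 (B) and 2881 (F) in air. AT1G71695 had the only value above 0 among the 8, with a log2 difference of 0.79 within letter A and -0.27 within letter F. Outside this list, AT4G33420, a peroxidase of differentiating vessels, did not fall. Its signals were 774 (A) and 648.5 (F) at 1%, against 772 (A), 647 (B) and 623 (F) in air (log2 0.06 ± 0.26).

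AT5G15180 and AT3G21770, for which no role is given here, were also lower with the letter as a block. AT5G15180 had 87.5 (A) and 143 (F) at 1%, against 232 (A), 121 (B) and 217 (F) in air, so each 1% array was below the air array of its own letter but array F was above array B in air. Its log2 change was -0.90 ± 0.18 with the block (limma adjusted p = 0.0197), and it passed in 8 of 11 alternatives. AT3G21770 had 661 (A) and 830.4 (F) at 1%, against 1120 (A), 933 (B) and 1048 (F) in air, and its log2 change of -0.53 ± 0.12 (limma adjusted p = 0.0364 with the block) passed in 5 of 11. AT2G35380, another locus with no role given here, had both 1% arrays below all air arrays, mostly through letter F. Its signals were 268 (A) and 94.97 (F) at 1%, against 316 (A), 315 (B) and 303 (F) in air, and it passed in neither fit (adjusted p = 0.0937 with the block, limma). Without array A in air it passed with the block (limma adjusted p = 0.0362). The dim members AT5G19880 and AT2G24800 also had both 1% arrays below all air arrays. AT5G19880 had 0.333 (A) and 0.885 (F) at 1%, against 1.43 (A), 1.14 (B) and 28.9 (F) in air, and AT2G24800 had 0.697 (A) and 6.25 (F) at 1%, against 6.55 (A), 12.9 (B) and 6.46 (F) in air. Neither passed in either limma fit.

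Higher signals at 1% for 48 h were few. Prx37, which acts on wall phenolics, had 215 (A) and 348 (F) at 1%, against 135 (A), 283 (B) and 192 (F) in air. Array A at 1% was below array B in air, but each 1% array was above the air array of its letter, and the log2 change with the block was 0.74 ± 0.14 (limma adjusted p = 0.0145). It passed in 9 of 11 alternatives of the block fit. AT3G28200 was the only member with both 1% arrays above all air arrays, at 114 (A) and 153 (F) against 87.2 (A), 81.0 (B) and 72.1 (F) in air. Its log2 difference of 0.68 ± 0.23 did not pass (limma adjusted p = 0.643, and 0.205 with the block). Prx37, unlike AT3G28200, is on the list for oxidative burst and defence, of which 3 of 8 members were measured. The other 2 measured members of that list also overlapped between groups. AT1G14550, an immune-responsive peroxidase, had 9.28 (A) and 21.0 (F) at 1%, against 8.41 (A), 13.1 (B) and 68.6 (F) in air. AT5G39580 had 89.4 (A) and 425 (F) at 1%, against 97.9 (A), 124 (B) and 612 (F) in air.

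Of the 5 measured peroxidases of root hair cells, 4 gave opposite differences in letters A and F. Opposite differences were common on these arrays, as only 26.7% of all probe sets were lower and 23.5% higher within both letters. Of 9 listed, 5 were measured, and all 5 were below air on average (66% of all probe sets). The median log2 difference of the 5 was -0.48, beside -0.11 over all probe sets. AT4G26010, which promotes root hair growth through extensin cross-linking, had 33.8 (A) and 166 (F) at 1%, against 102 (A), 189 (B) and 109 (F) in air. AT1G30870 had 54.2 (A) and 220 (F) at 1%, against 225 (A), 247 (B) and 67.3 (F) in air. AT3G49960 had 5.89 (A) and 23.9 (F) at 1%, against 46.9 (A), 29.6 (B) and 0.46 (F) in air. AT1G34510 had 5.67 (A) and 32.6 (F) at 1%, against 47.4 (A), 57.2 (B) and 2.82 (F) in air. For these 4 the log2 difference lay between -1.44 and -2.20 within letter A and between 0.58 and 2.21 within letter F, and the air array of letter F was low for 3 of them. For AT3G49960 and AT1G34510, array A at 1% and array F in air lay under the added 6, near the floor. With the letter as a block AT3G49960 passed in opposite directions, at log2 -1.96 without array F at 1% (limma adjusted p = 0.0174) and at 1.80 without array A at 1% (limma adjusted p = 0.0461). The root hair expansins EXPA7 and EXPA18, the measured 2 of 12 genes listed for root hair growth, had a summed signal of 44.5 in array A and 148 in array F at 1%, against 74.4 (F) to 208 (B) in air. Their part in the peroxidase values was not tested. In whole roots, fewer cells of a type and less RNA per cell cannot be told apart.

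AT5G17820, the fifth root hair member and a target of the transcription factor UPB1, had 387 (A) and 605 (F) at 1%, against 671 (A), 700.2 (B) and 624 (F) in air. The groups did not overlap, but the difference of log2 -0.45 ± 0.24 did not pass in either fit. The other UPB1 targets likewise did not pass. AT4G16270 had 7.73 (A) and 10.8 (F) at 1%, against 12.4 (A), 21.8 (B) and 11.4 (F) in air. AT4G11290, also part of the endodermal set, had 58.3 (A) and 322 (F) at 1%, against 116 (A), 121 (B) and 223 (F) in air. AT1G44970, the other measured endodermal member, had 133 (A) and 95.4 (F) at 1%, against 119 (A), 107 (B) and 69.8 (F) in air. Over all 42 members, 22 were lower within both letters (26.7% of all probe sets) and 6 higher within both (23.5%). The median log2 difference of the members was -0.31 within letter A and -0.16 within letter F, beside -0.03 and 0.02 over all probe sets.

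The milder oxygen levels gave no member that passed at 48 h. At 4% the count was 0 with limma (0.037% of all probe sets), also with the letter as a block (0.17%), and 2 members had an unadjusted p under 0.05 (3.26% of all). At 8% it was 0 of 42 (0% of all), also with the block, and 1 member had an unadjusted p under 0.05 (1.8%). All arrays lay below air for 5 members at 4% (4.56% of all): AT2G22420, AT2G35380, AT2G39040, AT4G36430 and AT5G15180. At 8% this held for 4 members (1.07%): AT2G22420, AT2G35380, AT4G36430 and AT5G17820. AT2G22420 and AT2G35380 were therefore below all air arrays at each of the 3 lowered oxygen levels (0.207% of all probe sets), though the 3 comparisons share the same 3 air arrays. AT2G22420 had 25.8 and 23.96 at 1%, 41.2 and 34.8 at 4%, and 40.9, 42.5 and 31.4 at 8%, against 42.5, 53.2 and 52.1 in air, where the highest 8% array (42.494) and the lowest air array (42.530) were almost equal. AT2G39040 had 5.66 and 15.7 at 1%, 13.8 and 28.8 at 4%, and 35.9, 36.4 and 42.4 at 8%, against 34.6, 32.7 and 49.0 in air. For AT2G39040 the 8% arrays lay within the range of air.

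At 0.5 and 2 h no member passed at any oxygen level without a block. With limma the count was 0 of 42 at 1%, 4% and 8%, beside 0.0518%, 0.0444% and 0.0148% of all probe sets at 0.5 h and 0.34%, 0.126% and 0.0222% at 2 h. Unadjusted p values under 0.05 were found for 0, 0 and 1 members at 0.5 h (1.75%, 1.44% and 0.555% of all) and for 1, 0 and 0 at 2 h (3.52%, 1.11% and 0.688%). PRX25 was the member at 1% for 2 h, with 76.7 (E) and 123 (F) at 1%, against 250 (D), 182 (E) and 218 (F) in air. Both 1% arrays lay below all air arrays, as they did for 4 members (11.1% of all), and the log2 difference was -1.09 ± 0.42 (limma adjusted p = 0.999). At 48 h its groups overlapped. The 4 check genes all passed at 1% for 2 h, among them AT4G33560, which had 697 and 628 at 1%, against 7.52, 4.58 and 6.09 in air.

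The change with time in darkness, without lowered oxygen, was read in normal air at 48 h against 2 h. Age and time of day cannot be told apart from darkness there, and letters A, B and F stand against D, E and F. Without a block, AT3G28200 was the only member that passed (2.38% of the members, against 5.47% of all probe sets in either direction and 3.11% lower). Its signals were 87.2 (A), 81.0 (B) and 72.1 (F) at 48 h, against 163 (D), 163 (E) and 150.1 (F) at 2 h. The groups were wide apart, and the signal fell 1.91-fold (log2 -0.94 ± 0.21 SE, limma adjusted p = 0.0114). The adjusted p stayed between 0.0259 and 0.0446 when each of the 6 arrays was left out. Unadjusted p values under 0.05 were found for 5 members (19.1% of all). Over the 42 members, 20 were below 0 (40.3% of all), and the median log2 change was 0.06, beside 0.09 over all probe sets.

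AT4G26010 of root hairs had a larger difference in air but more spread. It had 102 (A), 189 (B) and 109 (F) at 48 h, against 207 (D), 367 (E) and 386 (F) at 2 h, without overlap. The log2 change was -1.23 ± 0.38 with an adjusted p of 0.0621 (limma), and 0.0415 without array B in air. Against the 0.5 h arrays, and against the mean of both early groups, AT3G28200 and AT4G26010 were the 2 members that passed, both lower (4.64% and 9.18% of all probe sets passed). All arrays were lower at 48 h for 4 members (10.5% of all probe sets), the other 2 being AT4G16270 (log2 -0.51 ± 0.36) and AT5G17820 (log2 -0.39 ± 0.22). All arrays were higher for 2 (11.3% of all). PRX52 had 14.5 (A), 26.1 (B) and 13.1 (F) at 48 h, against 11.01 (D), 2.06 (E) and 7.62 (F) at 2 h. AT4G33420, a peroxidase of differentiating vessels, had 772 (A), 647 (B) and 623 (F) at 48 h, against 385 (D), 570.3 (E) and 451 (F) at 2 h (log2 0.54 ± 0.23). None of AT4G16270, AT5G17820, PRX52 and AT4G33420 passed in limma without a block.

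**Figure D3:**
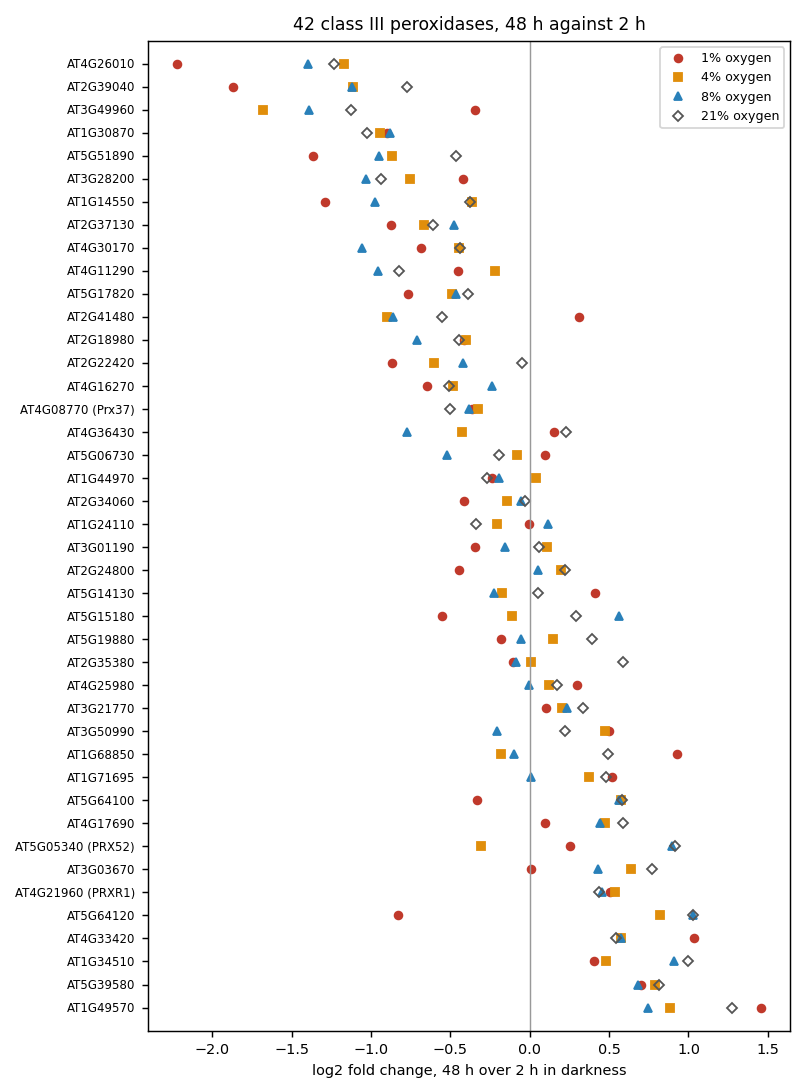
log2 fold change of each of the 42 members (rows), 48 h over 2 h in darkness, at 1, 4, 8 and 21% oxygen (symbols), ordered by the mean over the 4 levels with the lowest at the top. AT4G26010 lies between -2.22 and -1.17 at all 4 levels, and AT5G64120 is at -0.83 at 1% and between 0.82 and 1.03 at the other levels.

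The 48 h against 2 h comparisons at the 4 oxygen levels share no arrays. At 1% oxygen 2 members passed (1.26% of all probe sets in either direction), both lower. AT4G26010 had 33.8 (A) and 166 (F) at 48 h, against 386 (E) and 374 (F) at 2 h, a 4.67-fold fall (log2 -2.22 ± 0.46, limma adjusted p = 0.0207). AT5G51890 had 69.4 (A) and 131 (F) at 48 h, against 251 (E) and 261 (F) at 2 h, a 2.58-fold fall (log2 -1.37 ± 0.33, limma adjusted p = 0.0445). Neither passed without array A at 48 h or without either array at 2 h, and without array F at 48 h they passed together with AT2G39040 and AT5G17820 (6.24% of all probe sets). At 4% oxygen 0 members passed (0.237% of all), with 4 at an unadjusted limma p under 0.05 (9.81% of all). Without array F at 48 h, AT3G28200 passed there (log2 -1.21, limma adjusted p = 0.0307, with 0.955% of all probe sets). At 8% AT3G28200 passed (1.49% of all). It had 90.6 (A), 64.2 (B) and 74.4 (F) at 48 h, against 166 (C) and 156 (F) at 2 h (log2 -1.03 ± 0.23, limma adjusted p = 0.0341). That call was lost without arrays C or F at 2 h and without arrays B or F at 48 h.

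Across the 4 levels, 16 members had a log2 change below 0 at each level (21.3% of all probe sets) and 9 above 0 at each (27.6%). All 48 h arrays lay below all 2 h arrays at each of the 4 levels for AT3G28200, AT4G26010 and AT5G17820 (3.83% of all), and above them at each level for AT4G33420 (3.19%). The change of AT4G26010 was log2 -2.22 at 1%, -1.17 at 4%, -1.39 at 8% and -1.23 at 21%. That of AT3G28200 was -0.42 at 1%, -0.76 at 4%, -1.03 at 8% and -0.94 at 21%, smallest at 1%. AT5G17820 had -0.76 at 1%, -0.49 at 4%, -0.46 at 8% and -0.39 at 21%. AT4G33420 had 1.04 at 1%, 0.58 at 4%, 0.57 at 8% and 0.54 at 21%. AT2G39040 had -1.87 at 1%, -1.11 at 4%, -1.12 at 8% and -0.77 at 21%, and its arrays were apart at all levels but air.

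Letter F is the only letter with arrays at both 2 and 48 h. Within it, 13 members were lower at 48 h at all 4 oxygen levels (23.9% of all probe sets) and 7 were higher at all 4 (15.6%). AT4G26010 differed by log2 -1.77 to -1.14 and AT2G39040 by -1.32 to -0.76. AT3G28200 differed by log2 -0.05 at 1%, -0.20 at 4%, -1.01 at 8% and -0.999 at 21%. AT5G39580, which takes part in root hair growth in the cold, was higher by 0.92 to 2.27 within letter F, but without a block it passed in none of the 4 comparisons over all letters. EXPA7, the root hair expansin, had 41.9 (A), 71.5 (B) and 27.9 (F) at 48 h in air, against 93.3 (D), 103 (E) and 115 (F) at 2 h. Its log2 change of -1.13 ± 0.35 (limma adjusted p = 0.0629 without a block) was close in size to that of AT4G26010. EXPA18, the other measured root hair expansin, had 89.9 (A), 137 (B) and 46.6 (F) at 48 h in air. At 2 h in air EXPA18 had 114 (D), 79.4 (E) and 127 (F). Those groups overlapped (log2 -0.31 ± 0.35, limma adjusted p = 0.685 without a block). The part of either expansin in the values of AT4G26010 was not tested.

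Whether the response to 1% oxygen differed between 48 h and 2 h was tested as an interaction, and 0 members passed (0.0518% of all probe sets), also with the letter as a block (0.466% of all). An unadjusted limma p under 0.05 was found for 2 members (2.89% of all). AT2G22420 had an interaction of log2 -0.82 and AT5G51890 of log2 -0.90. AT5G64120 had the largest interaction, log2 -1.85 ± 1.19 (SE, limma adjusted p = 1), and with the block it was -1.22 ± 0.28 (limma adjusted p = 0.0772). Its signals were 473 and 534 at 1% for 48 h and 905 and 891 at 1% for 2 h, while the air arrays at 2 h spread from 127 (D) to 1146 (E).

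Signals of most members differed by replicate letter. In a limma F test over the letters, 36 of 42 members differed between letters (68.1% of all probe sets). The 6 that did not were AT4G26010, AT4G25980, PER36, AT3G28200, AT1G30870 and AT1G24110. AT5G64120 had the smallest adjusted p of all members in that test (3.1e-07). At 0.5 and 2 h its signals were 127 to 315 in the 7 arrays of letters C and D, while the 2 arrays of letter E had 905 and 1146, the 2 of letter G 456 and 491, and the 7 of letter F 809 to 1291. AT1G14550 had 6.47 to 12.7 in letters C and D and 27.2 to 73.6 in letters E, F and G. AT3G49960 ran the other way, with 106 to 169 in letters C and D and 15.3 to 40.4 in letters E, F and G. AT1G34510 likewise had 29.2 to 62.7 in letters C and D and 2.17 to 19.1 in the others. Letters C, D, E and G are absent at 48 h and letters A and B at the early times, so comparisons of durations set different letters against each other except within letter F.

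**Figure D4:**
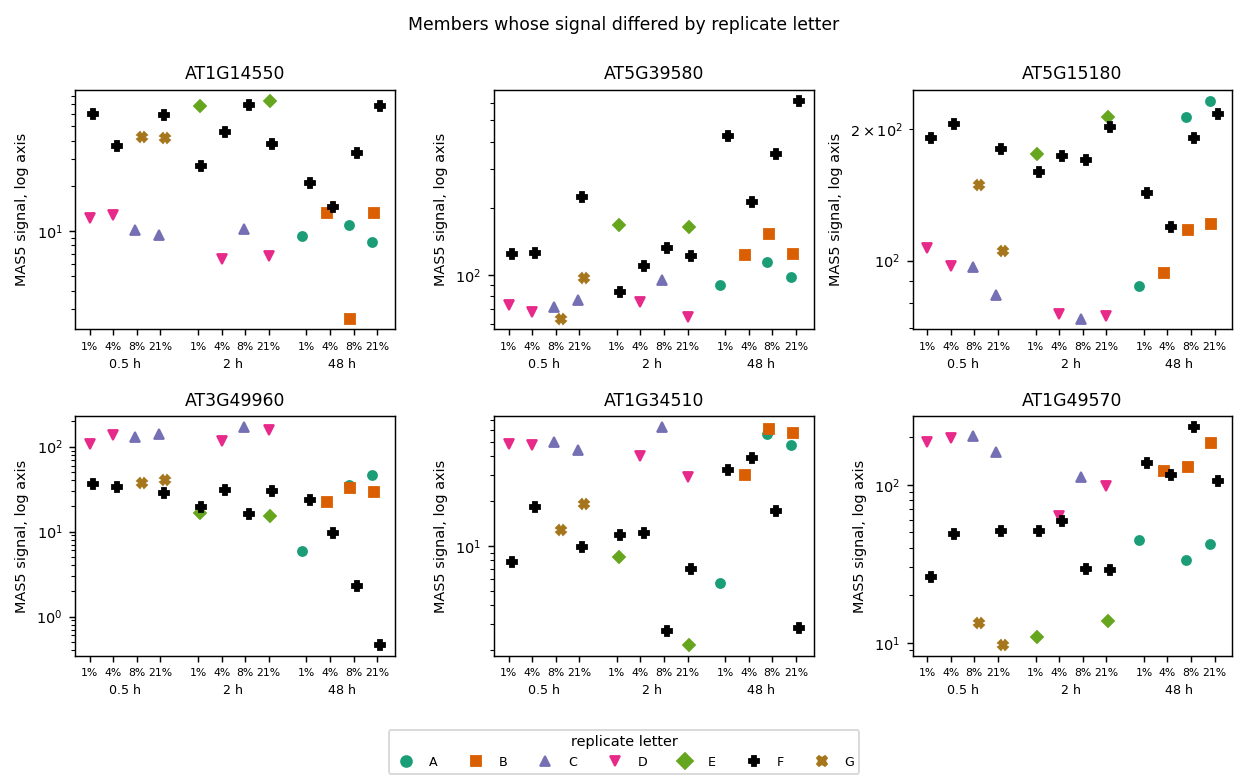
MAS5 signal (log axis) of 6 peroxidases on all 28 arrays, laid out by oxygen level (1, 4, 8 and 21%) within each duration. Each point is 1 array and its shape and colour give the replicate letter. At 0.5 and 2 h the arrays of letters C and D (purple and pink triangles) lie below the others for AT1G14550 and above them for AT3G49960 and AT1G34510, whatever the oxygen level.

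Genes that work with these enzymes were sparsely covered and none passed in any of the 14 comparisons with limma without a block, with the share of all probe sets that passed in each given above. Measured were 3 of 10 NADPH oxidases, which supply the apoplastic superoxide, 1 of 17 laccases, which also oxidize monolignols, 2 of 18 genes of monolignol synthesis, 1 of 10 endodermal barrier genes that are not peroxidases, the regulator UPB1, and 0 of 10 genes of intracellular peroxide removal. The NADPH oxidase AT4G11230 had the largest difference of its group at 1% for 48 h, with 89.4 (A) and 29.6 (F) at 1%, against 25.9 (A), 31.7 (B) and 29.9 (F) in air. The change was carried by array A, while array F lay inside the range of air (log2 0.73 ± 0.31, limma adjusted p = 0.885). HCT, an acyltransferase of the monolignol pathway, had 708 (A) and 1051 (F) at 1%, against 1031 (A), 1016 (B) and 861 (F) in air. CCR2, a cinnamoyl-CoA reductase, had 97.9 (A) and 113 (F) at 1%, against 106 (A), 41.5 (B) and 92.5 (F) in air. UPB1 had 67.7 (A) and 74.8 (F) at 1%, against 91.1 (A), 41.3 (B) and 106 (F) in air. GSO1, a receptor kinase needed for a closed Casparian strip, had 157 (A) and 79.3 (F) at 1%, against 171 (A), 174 (B) and 90.6 (F) in air.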

How the data were processed

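Each array holds the biotin-labelled total RNA of 1 root sample, per the labels. The deposited values are MAS5 signals, a linear intensity per probe set, made with MAS5 per the submitters' processing notes (its version is not given in the sources used here). Each deposited array had a mean of 100 after trimming 2% at each end, and this scaling was kept. Detection calls were not used here. Precision is limited by the number of arrays.

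Without 64 controls, 13513 probe sets were annotated to a single gene, 503 to several and 8730 to none. Names were updated through RefSeq (TAIR10.1). Group means were estimated for the 13513 on log2(signal + 6) over the 28 arrays in limma (version 3.58.1, R version 4.3.3), leaving 16 residual degrees of freedom. The moderated tests used a trend on intensity and were two-sided. Benjamini-Hochberg adjustment covered the 13513 probe sets in each of 14 comparisons (threshold 0.05). Of these, 9 set lowered oxygen against air, 4 set 48 h against 2 h, and 1 was an interaction. The script was tested on simulated data.

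The letter was checked as a pairing by correlating arrays that share it after removing group means. Values above 0.1 were found for 6 of 6 pairs at 0.5 h (0.457 to 0.718), 12 of 12 at 48 h (0.328 to 0.728) and 5 of 8 at 2 h (-0.117 to 0.689). Between durations the value was above 0.1 for 39 of 46 pairs (-0.321 to 0.616). Because the letter paired all arrays within 48 h, fits with it as a fixed block (10 residual degrees of freedom) are given there where they change a call. These fits set 1 effect per letter over all durations, which the pairs between durations did not all follow.

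Members, gene lists and tests were chosen with earlier results of these data known. Named with values are members that passed in any comparison; at 1% against air at 48 h and at 48 h against 2 h in air, up to 8 per direction whose arrays did not overlap; up to 6 per role list by mean signal; and up to 3 genes of each other list. Further members were named after their values were seen. Alternatives covered scaling, pseudocount (1.5 and 24), dim probe sets, the trend, the arrays fitted, the letter and each array left out.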

Additional observations from a re-analysis of the deposited data

How the results depend on the processing

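No call of the fit without a block changed direction under the alternatives run. In the block fit, AT3G49960 passed in neither direction over all arrays, and in opposite directions without array F or array A at 1% for 48 h. For 1% against air at 48 h, the count of members passing was 7 with the letter as a fixed block, 7 with the letter within each duration (chosen after seeing the data) and 4 with it as a random block, and 0 to 1 when each array was left out. The block count itself ranged from 3 to 12 when each array was left out. For 1% against air at 2 h it was 1 under each of the 3 block fits (PRX25, limma adjusted p = 0.0428 with the fixed block, which called 1.66% of all probe sets), a time at which the letter did not pair all arrays. For 48 h against 2 h, where the groups share only letter F, the fixed and random replicate block gave 10 and 9 members at 1%, 9 and 5 at 4%, 8 and 7 at 8%, and 13 and 10 in air (the fixed block called 9.21%, 10.1%, 9.35% and 20% of all probe sets). Raised signals in the fixed block were called for 4 members at 1% oxygen, 2 at 4%, 3 at 8% and 6 in air. Of all probe sets, 3.54%, 4.29%, 4.67% and 8.74% were called as raised. The other members called (6, 7, 5 and 7) had reduced signals, as had 5.68%, 5.78%, 4.68% and 11.2% of all probe sets. In that fit AT5G39580 was higher at all 4 levels (limma adjusted p = 0.000401 to 0.0338). AT4G33420 (limma adjusted p = 0.003), AT4G26010 (0.0323) and EXPA7 (0.0157) passed in air, and GSO1 passed as lower in air (0.0449), where its log2 change without a block was 0.14, and at 4% (0.0291). Leaving out each array gave 0 to 4 at 1%, 0 to 1 at 4%, 0 to 1 at 8% and 1 to 2 in air. At 1% the count was 1 after quantile normalization, 1 after centring and 0 with only the arrays of these durations. At 8% it was 0 after centring and 0 with only those arrays. In air it was 2 after centring, without the dimmest 40% of probe sets, without letter B (chosen after seeing the data), and with 0.5 h or the mean of 0.5 and 2 h as baseline. The causes were not tested.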
